A study of Mus musculus with 16 samples.

Results

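Phase II enzymes were measured by RNA-Seq in Lgr5-GFP+ cells of the mouse small intestine after vertical sleeve gastrectomy (VSG) or sham surgery. They were taken by gene symbol as the glutathione S-transferases (GSTs) of the alpha, mu, pi, theta, omega and kappa classes, the microsomal GSTs (MGSTs), the UDP-glucuronosyltransferases (UGTs) of families 1 to 3 and the sulfotransferases (SULTs), with pseudogenes left out. This gave 65 of the 48440 genes listed, of which 37 had a mean normalized count above 50 in at least 1 segment and are described here. Of the other 28, 21 were listed at 0 in every library and 7 had some reads. The described genes were 4 alpha, 7 mu, 2 pi, 3 theta, 1 omega and 1 kappa GST, 3 MGSTs, 4 UGT1 genes, 6 UGT2 genes and 6 of the 21 SULT genes, and neither of the UGT3 genes was among them. All 37 exceeded a mean of 50 in duodenal, 36 in jejunal and 32 in ileal libraries. Just inside this level was Ugt2b38, with a highest segment mean of 57.2, and just outside was Ugt2a2, with 48.7.

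Phase II enzymes attach a polar group to a foreign or endogenous compound, which makes it more soluble and lets transporters move it out of the cell. GSTs use glutathione, UGTs use UDP-glucuronic acid and SULTs use the sulfate donor PAPS. In the small intestine these enzymes are best known from absorptive enterocytes, where they act on dietary compounds, drugs, bilirubin, steroids and bile acids during first passage.

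The cells were from female Lgr5eGFP mice (Lgr5-EGFP, which make green fluorescent protein from the stem cell gene Lgr5). The study's methods give an age of 8 to 16 weeks for all its animals. For these mice they give 16 weeks of high-fat diet before surgery. Both cannot hold for the age at sampling, which is therefore uncertain. Each library is the sorted GFP+ epithelial cells from 6 cm of 1 segment of 1 mouse, taken 4 weeks after VSG or sham surgery and, after an overnight fast, 15 minutes after a liquid meal. The duodenum and the jejunum had 4 VSG and 2 sham libraries each, with the same 6 mice behind both segments. For the ileum there were 2 libraries of each group, the VSG ones being replicates 4 and 5. Within a group, equal replicate numbers mark 1 mouse across segments, and values are given below in the order of those numbers. GFP in such mice marks stem cells together with progenitors that still hold the protein, and cells positive for CD45, CD31, annexin V or a dead-cell stain were kept out of the sort. These are bulk libraries, in which fewer cells of a type and less RNA per cell cannot be told apart.

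The libraries held an implied 33.7 to 63.6 M reads for duodenal, 22.2 to 57.8 M for jejunal and 10.9 to 36.4 M for ileal cells. The stem cell marker Lgr5 had 1082 and 884 normalized counts in the duodenal sham libraries and 6565, 2638, 2169 and 892 in the VSG libraries, but sham replicate 1 was listed at 0 for it in the jejunum and the ileum. Jejunal VSG replicate 1 stood apart, with 196951 normalized counts of the ileal bile acid carrier Fabp6 where the other jejunal libraries had 15.8 to 313. Jejunal sham replicate 1 had the highest value of 24 of the 36 phase II genes there. Results for the phase II genes as a set are therefore also given without each of these libraries. Those for the other gene lists are not.

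The genes lie in clusters, and some cannot be separated well by reads. All 7 mu genes are on chromosome 3, the 6 UGT2 genes lie on chromosome 5 between positions 86889767 and 87424203 (GRCm38), and the 4 UGT1 genes share their 3′ exons on chromosome 1. Of the 37 genes, 18 had at least 1 stretch of 85 bases that also occurs in another gene's transcripts, and for 10 this was over 20% of the transcript. Gsta1 (84.6%, mostly with the predicted gene Gm3776), Ugt1a6a (95.7%), Ugt1a9 (58.8%), Ugt1a1 (57.5%), Ugt1a7c (53.1%), Gstp2 (44.4%), Gstp1 (42.0%), Gsta2 (29.0%), Ugt2b5 (27.2%) and Ugt2b38 (25.8%) are therefore uncertain as single genes, and their class sums are given as well. The alpha sum leaves out Gm3776 and Gm10639, the genes that share most with Gsta1 and Gsta2, so it stays uncertain too. Gm10639 had 1322 and 1592 in the duodenal sham and 890, 444, 569 and 346 in the VSG libraries.

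Promoters are shown for the genes on which the comparisons below turn, from RefSeq (GRCm38.p6), each as the 120 bases before the start of the transcript, 5′ to 3′ on the gene's strand. Capitals mark GTTAAT, read on either strand, a core sequence bound by HNF1, a factor of liver and gut genes. Gsta1 (chr9:78230549-78230668, plus strand), Ugt1a1 (chr1:88211839-88211958, plus) and Ugt2a3 (chr5:87337196-87337315, minus) are the most abundant alpha and UGT1 genes and the UGT2 gene that holds the motif at 2 places. Ugt2b5 (chr5:87140341-87140460, minus) and Ugt2b38 (chr5:87424204-87424323, minus) are shown because they share a run of 62 identical bases.
Gsta1: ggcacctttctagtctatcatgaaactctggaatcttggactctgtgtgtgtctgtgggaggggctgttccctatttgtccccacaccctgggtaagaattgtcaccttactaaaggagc
Ugt1a1: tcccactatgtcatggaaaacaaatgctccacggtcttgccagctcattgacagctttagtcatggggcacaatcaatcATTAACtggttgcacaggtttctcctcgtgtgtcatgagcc
Ugt2a3: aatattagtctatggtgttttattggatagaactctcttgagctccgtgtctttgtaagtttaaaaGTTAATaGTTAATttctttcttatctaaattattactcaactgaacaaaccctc
Ugt2b5: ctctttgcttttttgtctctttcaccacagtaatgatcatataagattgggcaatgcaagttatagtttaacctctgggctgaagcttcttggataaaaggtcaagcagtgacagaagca
Ugt2b38: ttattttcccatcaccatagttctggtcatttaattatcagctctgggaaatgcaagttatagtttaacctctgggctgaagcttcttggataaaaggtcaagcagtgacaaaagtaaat
Promoters were found for 35 of the 37 genes, all but Gsta4 and Gstt2. In the window from 250 bases before to 50 after the start, GTTAAT was found on either strand in 7 of 35 (20%), against 7.22% of 27025 mouse promoters. The 7 were Gsta3, Sult1a1, Sult1d1, Ugt1a1, Ugt1a6a, Ugt1a9 and Ugt2a3. The antioxidant response element core TGACNNNGC was in 3 (8.57%, against 12.4% of all), in Gsta3, Gstm5 and Mgst1, and the xenobiotic response element core TNGCGTG in 2 (5.71%, against 5.16%), Gsta2 and Sult1d1. The HNF4 letters CAAAGTCCA were in none (0.474% of all), and TATAAA was in 6 (17.1%, against 14.2%). These matches describe the letters alone and were not tested as binding sites, and none of the motifs searched is contained in another.

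In the duodenum, 35 of the 37 phase II genes had a lower mean after VSG than after sham surgery on the log2 scale, against 50% of all genes with a mean above 50. For 25 of them no VSG library reached the lower of the sham libraries, against 8.6% of all genes with a mean above 50. The median log2 fold change (VSG minus sham, on log2 of the normalized count + 1) was -0.85 for the phase II genes and 2.18e-05 for all genes with a mean above 50. None of the 37 was called by limma (adjusted p under 0.2, log2 fold change beyond 0.5 in size and a mean above 50), where 4 of 16867 genes tested were called (0.0237%). At an unadjusted p under 0.05, 13 of 37 were lower and 0 were higher, against 3.5% of all genes for lower and 3.33% for higher. A gene can pass the mean of 50 through 1 group alone, as Gsta2, Gsta3, Sult1a1 and Ugt2b38 did. Of the 33 genes above 50 in both groups, 32 were lower, 24 without overlap and 12 with an unadjusted p under 0.05. Over all genes above 50 in both groups, 8.55% were lower without overlap and 3.52% lower with such a p. The 13 became 8 (7 lower and 1 higher) without sham replicate 1 and 7 without sham replicate 2. With 4 against 2 libraries, a two-sided exact permutation test cannot give a p under 0.0667. Of the 25 genes lower without overlap, 13 were at that p and the others were at up to 0.267, since the test is on group means.

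**Figure D1:**
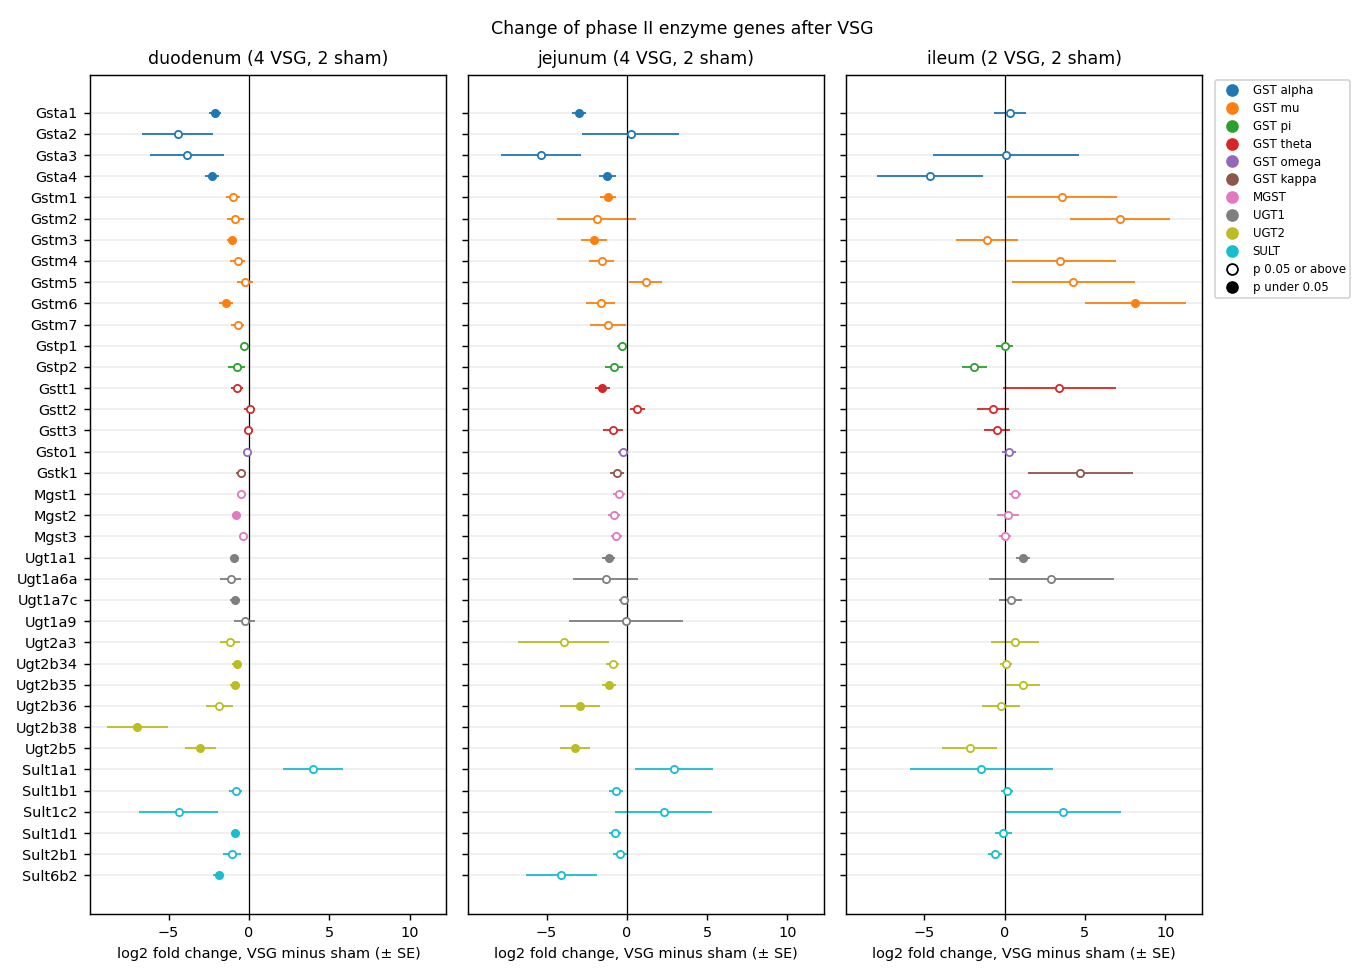
Log2 fold change (VSG minus sham, x axis, with its standard error) of each phase II gene (y axis, grouped and coloured by enzyme class) in the duodenum, jejunum and ileum; filled points have an unadjusted limma p under 0.05. In the duodenum 35 of 37 points and in the jejunum 31 of 36 lie left of 0, while in the ileum 21 of 32 lie right of it; genes with a mean of 50 or less in a segment are not drawn.

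The alpha GSTs, which conjugate a broad range of electrophiles, had the lowest levels relative to sham. Gsta1, the most abundant of them, had 22399 and 28389.9 normalized counts in the sham libraries and 4092, 4351, 10864 and 5517 in the VSG libraries. All 4 VSG libraries were well below both sham libraries, VSG replicate 3 the highest of them. Its log2 fold change was -2.14 ± 0.37 (SE, unadjusted p = 0.000254, adjusted p = 0.292), with means of 25394 ± 4236 (SD, n = 2) for sham and 6206 ± 3167 (SD, n = 4) for VSG. Gsta4, which acts on the lipid peroxidation product 4-hydroxynonenal, had 4873 and 8815 in the sham and 1099.5, 1398, 2459 and 808 in the VSG libraries. These groups did not overlap either, and its log2 fold change was -2.31 ± 0.45 (SE, unadjusted p = 0.000533, adjusted p = 0.292). Gsta2 and Gsta3 were low, at 0 to 718 and 0 to 128 normalized counts over the 6 libraries, and overlapped between groups. Summed, the 4 alpha genes had 28060.4 and 37379 normalized counts in the sham libraries and 5192, 5839, 13417 and 6344 in the VSG libraries, and the mean was 4.25 times higher in sham.

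All 7 mu GSTs had a log2 fold change below 0 in the duodenum, from -1.44 to -0.25, and 4 of them did not overlap. Gstm3, the most abundant mu gene, had 6712 and 8185 in sham and 4273, 2320.3, 4439.9 and 3411 in VSG libraries, and its log2 fold change was -1.08 ± 0.30 (SE, unadjusted p = 0.00541, adjusted p = 0.485). Gstm6 had 2646 and 1507 in sham and 591, 576, 1118 and 762 in VSG libraries, with a log2 fold change of -1.44 ± 0.43 (SE, unadjusted p = 0.00799, adjusted p = 0.535). For both genes the highest VSG library was below the lowest sham library. Gstm1 overlapped because VSG replicate 1, with 3856, was above both sham libraries (3516 and 3735), while the other VSG libraries had 1243 to 1799. Gstm2 overlapped as well (819 and 2271 in sham, 904, 742, 434 and 1127 in VSG), and so did Gstm5. Gstm4 did not overlap (1074 and 703 in sham, 482, 418, 578 and 691 in VSG), with a log2 fold change of -0.70 (unadjusted p = 0.164).

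The other cytosolic GSTs were closer between the groups. Gstp1, the abundant pi-class enzyme, had 19351 and 16792 in sham and 13089, 15337, 15627 and 14072 in VSG libraries, without overlap and with a log2 fold change of -0.31 ± 0.20 (SE, unadjusted p = 0.147). Gstp2, whose reads are hard to tell from those of Gstp1, overlapped (3072 and 4541 in sham, 1073, 1543, 3178 and 4311 in VSG), and the sum of both was 22423 and 21333 in sham and 14161, 16880.0, 18806 and 18383 in VSG libraries. Gsto1, whose enzyme reduces dehydroascorbate, overlapped too, with 22727 and 19631 in sham and 17006, 18414, 19829.5 and 21028 in VSG libraries. Gstk1, the kappa-class enzyme of mitochondria and peroxisomes, did not overlap (1407 and 1483 in sham, 894, 1089, 1095 and 1068 in VSG), with a log2 fold change of -0.48. Of the theta class, Gstt1 did not overlap (2723 and 2449.5 in sham, 2240.3, 1867, 1139.9 and 1113 in VSG, log2 fold change -0.77), while Gstt2 (1651 and 2375 in sham, 2980.4, 1595, 1941 and 1825 in VSG) and Gstt3 overlapped, with log2 fold changes of 0.03 and -0.05. All 3 MGSTs, which sit in membranes, lay lower in every VSG library. Mgst2, which can also make leukotriene C4, had 7235 and 5245 in sham and 3127, 4397, 3909 and 2938 in VSG libraries, and its log2 fold change was -0.80 ± 0.26 (SE, unadjusted p = 0.014, adjusted p = 0.599). The log2 fold changes of Mgst1 and Mgst3 were -0.48 (unadjusted p = 0.0741) and -0.36 (unadjusted p = 0.13).

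All 10 UGT genes had a log2 fold change below 0 in the duodenum, 8 of them without overlap and 6 with an unadjusted p under 0.05. Ugt1a1, the enzyme that glucuronidates bilirubin, had 23494 and 19893 in sham and 8883, 11133, 13253 and 12429 in VSG libraries. No VSG library reached the lower sham library, and the log2 fold change was -0.94 ± 0.23 (SE, unadjusted p = 0.00251, adjusted p = 0.451). Ugt1a7c had 13032 and 16527 in sham and 5111, 8153, 9469 and 10903 in VSG libraries, with a log2 fold change of -0.86 ± 0.31 (SE, unadjusted p = 0.0203, adjusted p = 0.653). Because the UGT1 genes share exons, their sum is given too. It was 40040.3 and 39471 in sham and 17407, 20025, 24115 and 25448 in VSG libraries, 1.83 times higher in the sham mean, while Ugt1a6a and Ugt1a9 overlapped between groups.

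The 6 UGT2 genes, whose enzymes act on steroids, bile acids and drugs, were lower in every VSG library without exception. Ugt2b34, the most abundant, had 30834 and 28845 in sham and 10929, 18701, 21236 and 23448 in VSG libraries, and its log2 fold change was -0.74 ± 0.31 (SE, unadjusted p = 0.038, adjusted p = 0.753). VSG replicate 1 was the lowest library for it, as it was for Ugt2a3 (5242 and 4405 in sham, 615, 3088, 2836 and 3684 in VSG, unadjusted p = 0.0924). Ugt2b35 had 4185 and 4883 in sham and 1598, 2638, 2615 and 3174 in VSG libraries, with a log2 fold change of -0.89 ± 0.31 (SE, unadjusted p = 0.0175, adjusted p = 0.63). Ugt2b5 had 2650.3 and 1399.7 in sham and 272, 48.5, 619 and 378 in VSG libraries, a larger difference at -3.02 ± 0.94 (SE, unadjusted p = 0.00995, adjusted p = 0.559). Ugt2b38, whose promoter shares the run of 62 bases with Ugt2b5, was listed at 0 in all 4 VSG libraries and had 52.7 and 290.4 in the sham libraries (unadjusted p = 0.0048, adjusted p = 0.485), so no fold is given. Ugt2b36 had 952 and 436 in sham and 281, 150.3, 317 and 73.1 in VSG libraries, with an unadjusted p of 0.0527. The sum over the 6 genes was 43917 and 40258 in sham and 13695, 24625, 27623 and 30758 in VSG libraries.

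Of the 6 SULT genes, 5 were lower in every duodenal VSG library and 1 was higher in every one. Sult6b2 had 10348 and 10124 in sham and 1597, 2462, 4135 and 3548 in VSG libraries. The sham libraries were nearly equal and far above the VSG libraries, and the log2 fold change was -1.89 ± 0.37 (SE, unadjusted p = 0.000517, adjusted p = 0.292). Sult1d1, which sulfates catecholamines, had 11263 and 15132 in sham and 5737, 6478, 8758 and 8661 in VSG libraries, with a log2 fold change of -0.84 ± 0.26 (SE, unadjusted p = 0.00901, adjusted p = 0.555). Sult1b1, which acts on thyroid hormone, had 13469 and 10289.8 in sham and 2987, 9354, 8479 and 7913 in VSG libraries (unadjusted p = 0.081). VSG replicate 1 was the lowest library for Sult1b1, and also for Sult2b1, a cholesterol sulfotransferase (3994 and 3712 in sham, 703, 3576, 2306 and 2052 in VSG, unadjusted p = 0.0849). Sult1c2 had 649 and 472 in sham and 0, 2.91, 413 and 302 in VSG libraries, so VSG replicates 1 and 2 had almost none (log2 fold change -4.39 ± 2.45 SE, unadjusted p = 0.106, adjusted p = 0.86). Sult1a1, the phenol sulfotransferase, was the exception, with 31.3 and 0 in sham and 315, 45.5, 33.8 and 136 in VSG libraries. It was at a low level in all 6 libraries (log2 fold change 4.01 ± 1.87 SE, unadjusted p = 0.0598, adjusted p = 0.822), and 7.74% of all genes had such a separation upwards. The size of the fitted values of Sult1c2 and Sult1a1 rests on libraries listed at 0 and on the pseudocount.

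**Figure D2:**
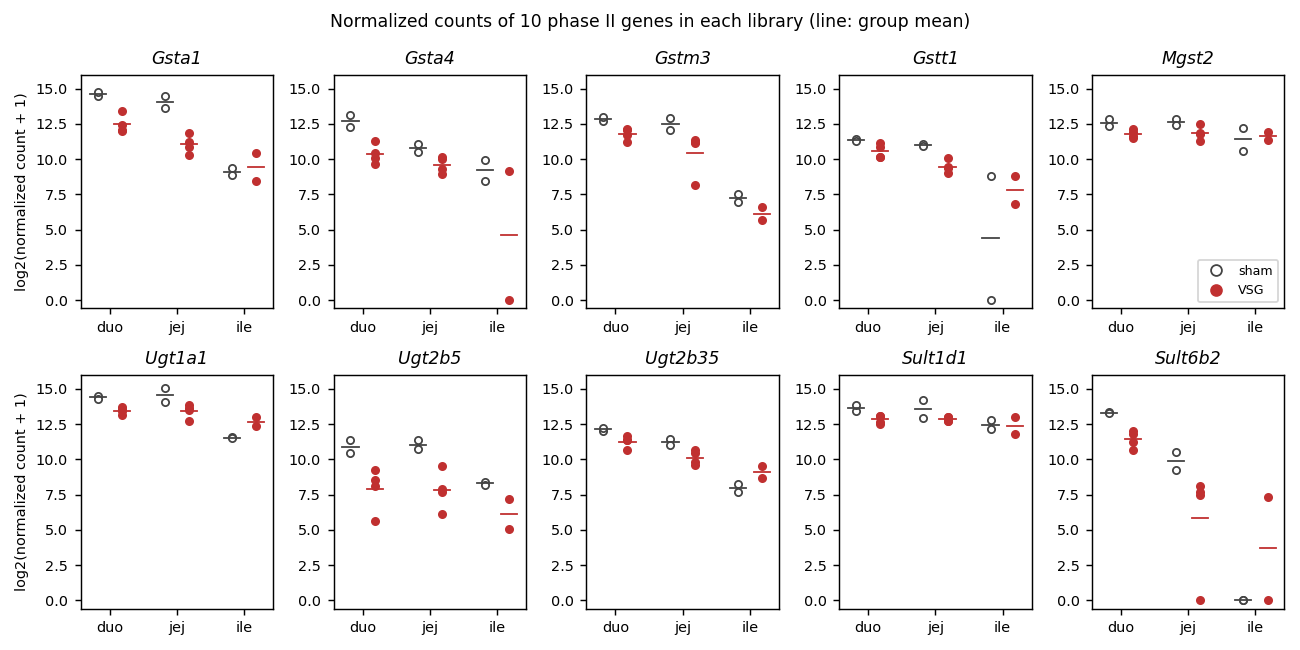
Normalized counts of 10 phase II genes, as log2(normalized count + 1) on the y axis, in each library of the duodenum (duo), jejunum (jej) and ileum (ile); open points are sham libraries, filled points VSG libraries and lines group means. The 10 genes were chosen among the 25 of 37 whose duodenal VSG points all lie below both sham points (8.6% of all genes with a mean above 50). For 8 of the 10 the jejunal points do too, Mgst2 and Sult1d1 being the exceptions. In the jejunum this held for 17 of 36 phase II genes.

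Over all 37 genes, the summed normalized counts of the duodenum were 254519 and 257899 in the sham libraries and 122139, 142389, 168801 and 165752 in the VSG libraries. This was 0.492% to 0.538% of all normalized counts after sham surgery and 0.257% to 0.360% after VSG, and the sham mean was 1.71 times the VSG mean. By class the ratio of sham to VSG means was largest for the alpha GSTs (4.25), followed by the SULTs (1.99), mu GSTs (1.88), UGT1 (1.83) and UGT2 (1.74). It was 1.39 for Gstk1, 1.38 for the MGSTs, 1.28 for the pi GSTs, 1.17 for the theta GSTs and 1.11 for Gsto1. The sums of alpha, kappa, mu, pi, MGST, UGT1, UGT2 and SULT genes did not overlap between the duodenal groups, whereas those of theta and omega did.

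**Figure D3:**
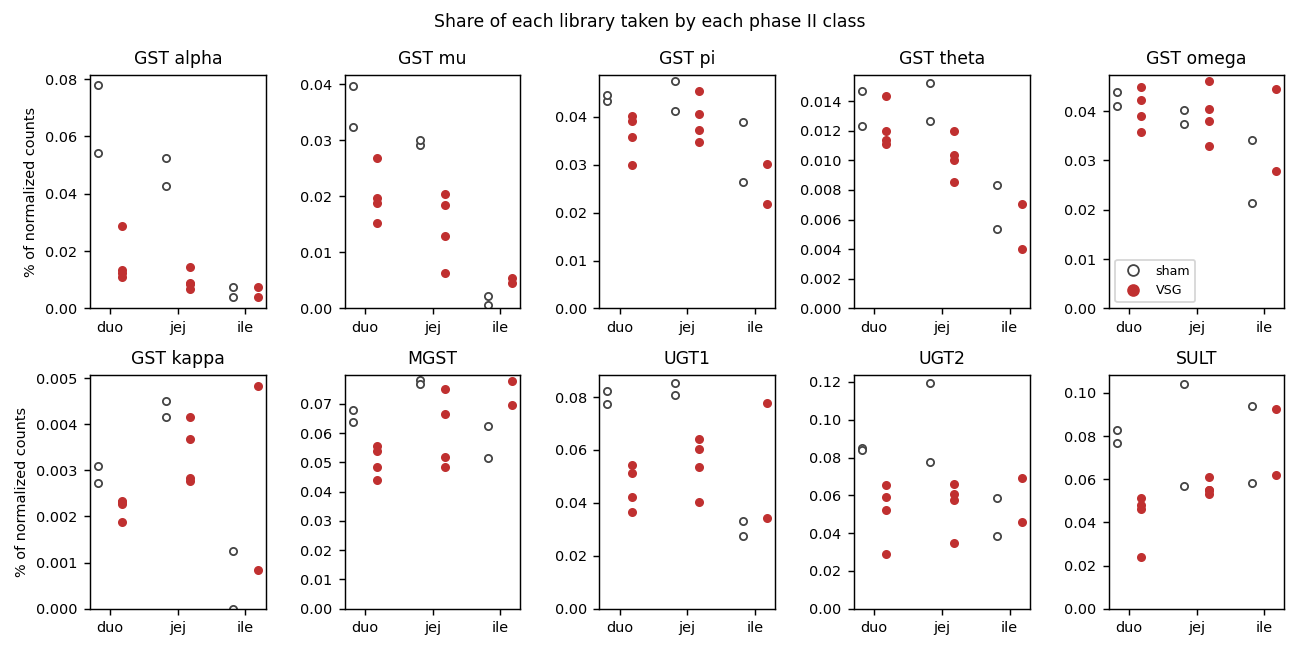
Share of each library's normalized counts taken by each phase II class (y axis, in percent, from 0) in the duodenum (duo), jejunum (jej) and ileum (ile); open points are sham and filled points VSG libraries. Alpha GSTs take 0.0542% to 0.0779% of the duodenal sham libraries and 0.0109% to 0.0286% of the VSG libraries, while Gsto1 (GST omega) overlaps between the groups in every segment.

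In the jejunum, 31 of 36 phase II genes had a log2 fold change below 0, against 45.9% of all genes with a mean above 50, with a median of -0.88 against 0.08 for all genes with a mean above 50. The VSG libraries were entirely below the sham libraries for 17 genes, against 6.99% of all genes, and entirely above for 0, against 7.86%. Limma called none of the 36, where 2 of 15857 genes tested were called (0.0126%). At an unadjusted p under 0.05, 9 were lower and 0 were higher, against 2.65% of all genes for lower and 4.47% for higher. Of the 32 genes above 50 in both groups, 30 were lower, 16 of these without overlap and 9 with an unadjusted p under 0.05. Over all genes above 50 in both groups, 7.05% were lower without overlap and 2.75% lower with such a p. The other 4 phase II genes, Gsta2, Gsta3, Sult1a1 and Sult1c2, passed 50 through 1 group alone.

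The jejunal counts depended on single libraries. Without VSG replicate 1, the library rich in Fabp6, 8 genes were lower at an unadjusted p under 0.05 and the median was -0.70. Without sham replicate 1, the library with the highest phase II values, 3 were lower and the median was -0.82. Leaving out VSG replicate 2 left 4. Without sham replicate 2, the median was -1.35. That fit holds 1 sham library, which is assumed to vary like the VSG libraries. Scaling every library to the same total moved the median of all genes to 0.30, and the phase II median was then -0.65, with 5 genes at an unadjusted p under 0.05.

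Gsta1 again had the smallest p of the phase II genes, with 22425 and 12503 normalized counts in the sham libraries and 1248, 1869.9, 3726 and 2361 in the VSG libraries. All 4 VSG libraries were far below the lower sham library, and the log2 fold change was -2.98 ± 0.46 (SE, unadjusted p = 6.62e-05, adjusted p = 0.35). Gsta4 had 2138 and 1485 in sham and 1014, 488, 1161 and 613 in VSG libraries, with a log2 fold change of -1.21 ± 0.52 (SE, unadjusted p = 0.0438, adjusted p = 0.76). Gsta3 had 121 and 335 in sham and 0, 0, 26.3 and 21 in VSG libraries, so it was at a low level throughout (unadjusted p = 0.057). The sum of the 4 alpha genes was 24688 and 14352 in sham and 2899, 2358, 4913 and 3045 in VSG libraries, and the sham mean was 5.91 times the VSG mean.

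Among the mu GSTs, Gstm3 had 7802 and 4356 in sham and 283, 2207, 2363 and 2616 in VSG libraries. VSG replicate 1 was the lowest by far, and the log2 fold change was -2.05 ± 0.82 (SE, unadjusted p = 0.0303, adjusted p = 0.76), or -1.29 without that library. Gstm1 had 2671 and 1455 in sham and 639, 711, 1145 and 1124 in VSG libraries (log2 fold change -1.17 ± 0.49 SE, unadjusted p = 0.0378, adjusted p = 0.76). Gstm6 did not overlap either, with 1474 and 947 in sham and 89.7, 378, 808 and 760.2 in VSG libraries and an unadjusted p of 0.105. Gstt1 of the theta class had 2145 and 1919 in sham and 645, 1078, 703 and 507 in VSG libraries, a clear gap with a log2 fold change of -1.52 ± 0.49 (SE, unadjusted p = 0.0105, adjusted p = 0.76). Gstt2 was on the other side of 0, with 657 and 1221 in sham and 1777, 1172, 1372 and 1376 in VSG libraries (log2 fold change 0.65, unadjusted p = 0.18). Mgst3 did not overlap (18234 and 10143 in sham, 8518, 8848, 8182 and 8994 in VSG, unadjusted p = 0.0707), whereas Mgst2 did, because VSG replicate 1 had 5709 against 7290.0 and 5465 in sham.

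Ugt1a1 had 34423 and 17076 in the jejunal sham libraries and 6721, 11455, 13045 and 14930.4 in the VSG libraries. The groups did not overlap, and the log2 fold change was -1.13 ± 0.42 (SE, unadjusted p = 0.0224, adjusted p = 0.76). Ugt1a7c did overlap (5693 and 9312 in sham, 6736, 6426, 6855 and 6141 in VSG), with a log2 fold change of -0.16. Summed, the 4 UGT1 genes had 40269 and 27258 in sham and 13460.1, 18405, 20729 and 21743 in VSG libraries, without overlap. All 5 UGT2 genes above 50 were lower in every VSG library, and 3 had an unadjusted p under 0.05. Ugt2b5 had 2665 and 1673 in sham and 727, 69.1, 241 and 207 in VSG libraries (log2 fold change -3.23 ± 0.92 SE, unadjusted p = 0.0056, adjusted p = 0.76). Ugt2b36 had 1684 and 484 in sham and 253, 24.2, 232 and 127 in VSG libraries (log2 fold change -2.94 ± 1.25 SE, unadjusted p = 0.0397, adjusted p = 0.76). Ugt2b35 had 2783 and 2093 in sham and 907, 769, 1422 and 1590.2 in VSG libraries (log2 fold change -1.11 ± 0.45 SE, unadjusted p = 0.0343, adjusted p = 0.76), and for all 3 the groups were apart. Ugt2b34 had 38110.4 and 17573 in sham and 9842, 15318, 16012 and 16318 in VSG libraries, where VSG replicates 2 to 4 came close to the lower sham library (unadjusted p = 0.0512). Ugt2a3 had 10914 and 4424 in sham and 0, 3718, 2919 and 4130.3 in VSG libraries, and its log2 fold change of -3.92 became -0.97 without VSG replicate 1, the library at 0. The sum over the UGT2 genes was 56156 and 26248 in sham and 11729, 19898, 20828 and 22372 in VSG libraries, so these did not overlap either.

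The jejunal SULT genes overlapped between groups in 5 of 6 cases. Sult6b2 was lower in every VSG library (1469 and 609 in sham, 0, 275, 200.5 and 177 in VSG), and its log2 fold change of -4.08 (unadjusted p = 0.0959) became -2.14 without VSG replicate 1, which was listed at 0. Sult1d1 overlapped, with 19338 and 7976 in sham and 6769, 6656, 8289 and 8047 in VSG libraries, where only sham replicate 1 stood out (unadjusted p = 0.078). The same library alone was high for Sult1b1 (21804 and 6919.9 in sham, 6032, 8303, 7959 and 8105 in VSG). Sult2b1 (6532 and 3398 in sham, 4819.7, 3455, 3972 and 2272 in VSG) and the low Sult1c2 (0 and 97.8 in sham, 0, 260.1, 346 and 63.3 in VSG) and Sult1a1 (0 and 91.9 in sham, 183, 53.4, 134 and 19.9 in VSG) overlapped as well. Summed over all 37 genes, the jejunum had 268264 and 157359 normalized counts in sham and 103015, 110021, 122753 and 130550.0 in VSG libraries, or 0.467% to 0.570% of all normalized counts against 0.308% to 0.386%.

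The remaining jejunal GSTs were closer between the groups or had single libraries apart. Gstp1 (12784 and 13578 in sham, 10436, 11326, 8529 and 13128 in VSG) and Gstp2 (6641 and 2433 in sham, 1159, 2652, 4230.4 and 2213 in VSG) overlapped, as did Gsto1 (18939 and 12611 in sham, 13548, 11334, 13019.7 and 15622 in VSG). The sum of the pi genes was 19425 and 16011 in sham and 11596, 13978, 12759 and 15341 in VSG libraries and did not overlap. Gstk1 did not overlap (1958 and 1515 in sham, 1235, 981, 1429.9 and 935 in VSG, unadjusted p = 0.177), and neither did Gstm4 (1226 and 736 in sham, 132, 394, 483 and 405 in VSG, unadjusted p = 0.0691). Gstm2 overlapped, with 178 and 787 in sham and 0, 249, 971 and 449 in VSG libraries, VSG replicate 1 again being listed at 0. The full values of Mgst2 were 7290.0 and 5465 in sham and 5709, 2494, 3659.9 and 3432 in VSG libraries, and Ugt2b38 had at most 1.44 normalized counts in any jejunal library.

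The duodenal and jejunal comparisons share their mice, so likeness between them is no independent support. Side by side, 31 of 36 genes had a log2 fold change below 0 in both segments, as did 28% of all genes with a mean above 50 in both. For 15 the VSG libraries of both segments were all below the sham libraries, against 1.6% of all genes. Gsta1, Gsta4, Gstm3, Ugt1a1, Ugt2b35 and Ugt2b5, 6 genes, were lower with an unadjusted p under 0.05 in both, against 0.948% of all genes. The difference of the VSG effect itself was tested by taking, for each mouse, the jejunal value minus the duodenal one. None of 36 phase II genes had an unadjusted p under 0.05, against 4.21% of 12337 genes, and the smallest adjusted p was 0.948. Over all genes tested, 604 of 14718 had an unadjusted p under 0.05 and 0 had an adjusted p under 0.2 by limma. Sult1c2 had the smallest p, with a difference of 6.69 ± 3.17 (SE, unadjusted p = 0.0657), followed by Gsta1 with -0.83 ± 0.40 (SE, unadjusted p = 0.0696). Leaving out sham replicate 1 or 2 gave 3 or 4 genes at an unadjusted p under 0.05. A p above the threshold does not show that the effects were alike.

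In the ileum the phase II genes were not shifted to lower values after VSG. Of 32 genes above 50, 11 had a log2 fold change below 0 and 21 above 0, where 45.1% of all genes were below 0, and the median was 0.25 against 0.14 for all genes. The median was -0.012 without VSG replicate 5 and -0.022 without sham replicate 1, the library listed at 0 for Lgr5, and 16 of 32 genes were then below 0 in either case. Limma called none of the 32 and none of 13853 genes tested (0.0%), and with 2 against 2 libraries an exact permutation test cannot go below 0.333. At an unadjusted p under 0.05, 0 genes were lower and 2 were higher, against 1.43% and 2.51% of all genes. Both VSG libraries were below both sham libraries for 5 genes (13.5% of all genes) and above both for 6 (19.1%). Gstm2, Gstm4, Gstm5, Gstm6 and Sult1a1 were above 50 through 1 group alone. Of the 27 genes above 50 in both groups, 10 were lower and 17 higher, 5 were lower and 3 higher without overlap, and 1 (Ugt1a1) had an unadjusted p under 0.05. Over all genes above 50 in both groups, 14.3% were lower and 16% higher without overlap. In all, 12 of the 32 were listed at 0 in at least 1 library.

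Ugt1a1 had 3069 and 2930.2 normalized counts in the ileal sham libraries and 5279 and 8246 in the VSG libraries. It was thus higher in both VSG libraries, with a log2 fold change of 1.14 ± 0.43 (SE, unadjusted p = 0.0417, adjusted p = 0.736). Ugt2b35 was higher too (207 and 306 in sham, 417 and 729.8 in VSG), with an unadjusted p of 0.331, and so was Mgst1 (5014 and 4189 in sham, 7037 and 7505 in VSG, unadjusted p = 0.125). The mu genes Gstm2 and Gstm6 were listed at 0 in both sham libraries, so no fold is given for them. In the VSG libraries Gstm2 had 114 and 176 (unadjusted p = 0.065). Gstm6 had 138 and 562 there (unadjusted p = 0.045, adjusted p = 0.736). Gstm4 had 88.3 and 0 in sham and 88.4 and 121 in VSG libraries. The sham libraries were the shallower ones, at an implied 21.5 and 10.9 M reads against 36.4 and 32.0 M in the VSG libraries. The sums of the mu, MGST and UGT1 genes were higher in both ileal VSG libraries, and those of the other classes overlapped. For UGT1 the sum was 6862 and 7437 in sham and 7569 and 17129.7 in VSG libraries. For UGT2 it was 9681 and 13202 and 10092 and 15229.5, for the alpha GSTs 1009 and 1664 and 913 and 1621, and for the pi GSTs 6616 and 8733 and 6621 and 4779.9, in the same order.

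The 5 genes lower in both ileal VSG libraries were Gstm3, Gstp2, Gstt2, Sult2b1 and Ugt2b5. Gstp2 had 3129 and 1257 in sham and 743 and 386 in VSG libraries (log2 fold change -1.89 ± 0.80 SE, unadjusted p = 0.0598, adjusted p = 0.736), while its near copy Gstp1 overlapped (3487 and 7476 in sham, 5879 and 4394 in VSG). Sult2b1 had 4102 and 6692 in sham and 3888 and 3087 in VSG libraries (unadjusted p = 0.241). Gstt2 had 528 and 603 in sham and 481 and 232 in VSG libraries (unadjusted p = 0.48). Gstm3 (182 and 122 in sham, 49 and 97.4 in VSG) and Ugt2b5 (334 and 292 in sham, 145 and 31.6 in VSG) were the 2 genes lower in every VSG library of all 3 segments, with unadjusted p-values of 0.592 and 0.259 in the ileum. Gsta1, which had the smallest p in the other segments, overlapped here, with 653 and 458 in sham and 341 and 1381 in VSG libraries. Gsta4 had 355 and 986 in sham and 572 and 0 in VSG libraries, so it overlapped as well. Among the UGT genes, Ugt2b34 (8185 and 11872 in sham, 9104 and 12379 in VSG), Ugt2a3 (744 and 168 in sham, 174 and 1746 in VSG), Ugt2b36 (210.4 and 563 in sham, 253 and 343 in VSG) and Ugt1a7c (2278 and 4506 in sham, 2219 and 7693 in VSG) overlapped. The same was true of Mgst2 (1531 and 4739 in sham, 2557 and 3887 in VSG), Sult1d1 (4629 and 6958 in sham, 3519 and 8244 in VSG) and Gstt1 (447 and 0 in sham, 449 and 111 in VSG), and of the low Gsta3, Gstm1, Sult1a1 and Sult1c2. Sult6b2 had 0 and 0 in sham and 0 and 164 in VSG libraries. The sum over all 37 genes was 59563 and 75416 in sham and 66661 and 85429.5 in VSG libraries.

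Along the intestine, levels are described without a test, since each segment was normalized separately, as ppm of a library's normalized counts averaged over the libraries of a segment. Of the 37 genes, 18 were highest in the duodenum, 10 were highest in the jejunum and 9 in ileal libraries. These averages hold VSG and sham libraries in unequal shares (4 to 2 in the upper segments, 2 to 2 in the ileum). Over the sham libraries alone, 20 genes peaked in duodenal and 15 in jejunal cells, and only Sult1a1 and Sult2b1 in ileal ones. The sham averages of Mgst1, for example, were 238, 273 and 193 ppm and those of Sult1d1 267, 324 and 247 ppm from duodenum to ileum, lowest in the ileum for both. Every duodenal library was above every ileal library for 11 genes, Gsta1, Gstm1, Gstm2, Gstm3, Gstm4, Gstm7, Gstt1, Gstt2, Sult6b2, Ugt1a9 and Ugt2b35. The share of all genes with such a separation, in either direction, was not counted, so these numbers describe levels alone. Sult6b2 was at 110.1, 11.4 and 1.86 ppm in the duodenum, jejunum and ileum. Gstm3 had 101, 85.6 and 4.84 ppm and Gsta1 259, 186 and 31.2 ppm in the same order. Sult2b1 was the only gene with every ileal library above every duodenal one, at 56.3, 111 and 195 ppm. Gstp1 (326, 325 and 235 ppm), Gsto1 (411, 392 and 319 ppm), Mgst3 (262, 284 and 249.8 ppm) and Ugt2b34 (463, 503 and 458 ppm) were closer between segments, with overlapping libraries. Ugt1a1 had 307, 432 and 217 ppm, and its ranges over libraries overlapped in all segments.

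Levels were also set against the length of each gene's longest annotated protein-coding transcript, so their order depends on that choice. As mean normalized counts per kilobase, duodenal levels were 19137 for Gstp1, 16728 for Gsto1, 14402 for Gsta1 and 11491 for Mgst3. The leading UGT genes were lower per kilobase, at 6676 for Ugt1a1 and 5179 for Ugt2b34, as were Sult1d1 (3859), Gstm3 (3730.2), Gstk1 (1261) and Gstt3 (1110.2). In the jejunum Gstp1 had 14166 per kilobase, Gsto1 11996, Mgst3 9559 and Gsta1 8406. In the ileum Gstp1 had 6466, Gsto1 6106, Mgst2 5271, Mgst3 5207, Mgst1 5087 and Sult1b1 2582, while Gsta1 was at 809.7.

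Genes that supply cofactors or act on the conjugates are described from lists of pathway genes. Of 9 glutathione genes above 50 in the duodenum, 7 had a log2 fold change below 0, 1 with an unadjusted p under 0.05, and 2 above 0, 1 of them with such a p. Ggt1, which breaks down glutathione and its conjugates at the cell surface, had 28634 and 14234 in the duodenal sham and 5077, 7204, 8810.3 and 9391 in the VSG libraries (log2 fold change -1.44 ± 0.34 SE, unadjusted p = 0.00192, adjusted p = 0.434). It was -1.50 in the jejunum (unadjusted p = 0.0102) and -1.02 in the ileum (unadjusted p = 0.0293), without overlap in any segment. In the jejunum VSG replicate 2, with 16639, came close to sham replicate 2, with 16824. Gsr, which regenerates glutathione, was higher instead, with 3803 and 4902 in the duodenal sham and 5058, 8679, 7378 and 7537 in the VSG libraries (log2 fold change 0.70 ± 0.27 SE, unadjusted p = 0.0262, adjusted p = 0.681). In the jejunum it was 0.77 (unadjusted p = 0.0426), again higher in every VSG library. Gclc, of the rate-limiting enzyme of glutathione synthesis, had 2484 and 1959.6 in the jejunal sham and 1108, 1213, 1261 and 1229 in the VSG libraries (unadjusted p = 0.0441), but -0.20 as duodenal log2 fold change with overlap.

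Of the 4 genes of UDP-glucuronic acid supply, 3 had a log2 fold change below 0 in the duodenum and 3 in the jejunum. Ugdh, which makes UDP-glucuronic acid, had 17038 and 12569.6 in the duodenal sham and 2133, 6879.6, 7892 and 10193 in the VSG libraries (log2 fold change -1.32 ± 0.53 SE, unadjusted p = 0.0347, adjusted p = 0.733), and its jejunal log2 fold change was -1.43 ± 0.44 (SE, unadjusted p = 0.00932, adjusted p = 0.76). Of 7 genes of sulfate donor supply, 6 were below 0 in the duodenum and 5 in the jejunum. Papss2, a synthase of the donor PAPS, had 72226 and 66465 in the duodenal sham and 19970.1, 37406, 54958 and 48937 in the VSG libraries (log2 fold change -0.88 ± 0.38 SE, unadjusted p = 0.0448, adjusted p = 0.777), and -1.17 (unadjusted p = 0.0258) as jejunal log2 fold change with overlap. Neither of these lists had a gene with an unadjusted p under 0.05 in the ileum. Other conjugating enzymes, such as methyl- and acetyltransferases, had no gene with an unadjusted p under 0.05 in any segment (9, 9 and 8 genes above 50 in the duodenum, jejunum and ileum, of which limma called 0). Their median log2 fold change was -0.13, -0.37 and 0.24 in the same order.

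The transporters that export conjugates held the only gene of these lists that was called. Abcc2, which moves glutathione and glucuronide conjugates across the apical membrane, fell in the duodenum, from 20885 and 14779 in the sham libraries to 4093, 6334, 4793 and 4459 in the VSG libraries (log2 fold change -1.86 ± 0.25 SE, unadjusted p = 3.81e-05, adjusted p = 0.196). This adjusted p stayed under 0.2 in 5 of 14 alternatives and ranged from 0.104 to 0.801 over them, rising to 0.435, 0.631 and 0.669 without VSG replicate 2, 3 or 4. In the jejunum Abcc2 was lower in every VSG library too, with a log2 fold change of -2.30 ± 0.74 (SE, unadjusted p = 0.0109, adjusted p = 0.76). It had 36825 and 10614 in the jejunal sham and 1272, 10346, 4372 and 4492 in the VSG libraries. VSG replicate 2 thus came close to sham replicate 2, and sham replicate 1 was far above both. Abcb1a, a drug efflux pump, had 16657 and 6721 in the duodenal sham and 1353, 3317, 2956 and 2012 in the VSG libraries (log2 fold change -2.22 ± 0.44 SE, unadjusted p = 0.000671, adjusted p = 0.333). Its jejunal log2 fold change was -2.87 with overlap (unadjusted p = 0.00816), where sham replicate 1 had 101474 and sham replicate 2 had 7117. The jejunal VSG libraries had 7823, 3641, 2267 and 2824. In the ileum its log2 fold change was -1.39 (unadjusted p = 0.0194). Of 6 export genes, 4 had a log2 fold change below 0 in the duodenum, 3 in the jejunum and, of 5 above 50, 1 in the ileum. Among 3 deconjugating enzymes in the tables, the sulfatase gene Arsa was lower in every duodenal VSG library (log2 fold change -1.26 ± 0.39 SE, unadjusted p = 0.00968, adjusted p = 0.555). Gusb, the beta-glucuronidase, was listed at 0 in both ileal sham libraries and had 241 and 259.7 in the VSG libraries (unadjusted p = 0.0455).

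Of 12 regulators above 50, 7 duodenal, 8 jejunal and 4 ileal log2 fold changes were below 0. Ppara, a nuclear receptor for fatty acids, had 7862 and 1674 in the duodenal sham and 229, 1343, 464 and 1440.4 in the VSG libraries (log2 fold change -2.43 ± 0.83 SE, unadjusted p = 0.0165, adjusted p = 0.613), and -1.64 as jejunal log2 fold change (unadjusted p = 0.0138). The groups did not overlap in either segment. Nr1i3, the constitutive androstane receptor, had 5927 and 4929 in the duodenal sham and 1707, 3056, 3153 and 2973 in the VSG libraries (log2 fold change -1.03 ± 0.31 SE, unadjusted p = 0.00791, adjusted p = 0.534). The 10 other regulators, among them the electrophile sensor gene Nfe2l2 with a duodenal log2 fold change of -0.27 and the aryl hydrocarbon receptor gene Ahr with -0.27, had unadjusted p-values above 0.05 in all 3 segments.

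Enterocyte markers were lower after VSG where the phase II genes were. In the duodenum all 12 had a log2 fold change below 0 (median -1.31), 8 with an unadjusted p under 0.05 and 9 without overlap. Of all genes with a mean above 50 there, 3.5% were lower with such a p and 8.6% lower without overlap. The sum of the markers was 339044 to 684850.0 normalized counts after VSG and 791687 to 1166120.0 after sham surgery. In the jejunum all 12 were below 0 (median -1.62), 5 with an unadjusted p under 0.05 and 5 without overlap. The shares of all genes there were 2.65% and 6.99%. The sum of the markers was 541235 to 1009750.0 normalized counts after VSG and 881671 to 2338150.0 after sham surgery. In the ileum 5 were below and 7 above 0 (median 0.03), and their sum was 370003 to 682765 normalized counts after VSG and 639404 to 771796 after sham surgery. None of the 12 was listed at 0 in every library of a segment. The median over the phase II genes of each library's log2 value, centred on its segment, was 0.59 and 0.65 in the duodenal sham libraries and -0.45, -0.36, -0.02 and -0.12 in the VSG libraries. The same value for the enterocyte markers was 1.08 and 0.48 in sham and -0.81, -0.08, 0.12 and -0.69 in VSG libraries. In the jejunum the phase II value was 1.01 and 0.61 in sham and -0.60, -0.26, 0.01 and 0.095 in VSG libraries. The jejunal enterocyte value was 1.77 and 0.32 in sham and -1.26, 0.29, -0.34 and -0.40 in VSG libraries. The part of the enterocyte markers in the phase II differences was not tested.

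**Figure D4:**
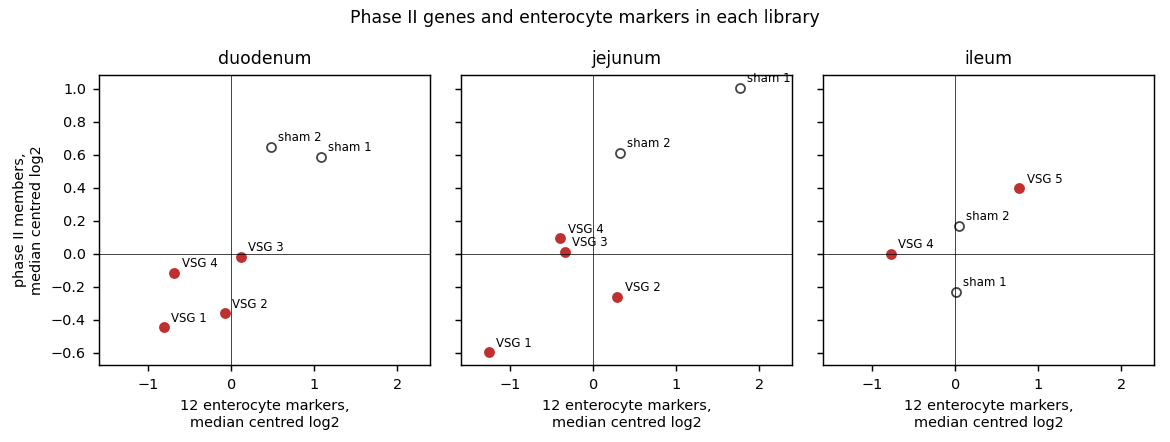
Median centred log2 value over the 12 enterocyte markers (x axis) and over the phase II genes (y axis) in each library of the 3 segments; open points are sham and filled points VSG libraries. In the duodenum and the jejunum both sham libraries have the highest phase II values (0.59, 0.65 and 1.01, 0.61).

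Most markers of the other epithelial cell types lay on the other side of 0. Goblet cell markers had a log2 fold change above 0 for 6 of 6 in the duodenum and the jejunum and 5 of 6 in the ileum (medians 0.55, 1.18 and 0.54), and tuft cell markers for 4 of 4, 4 of 4 and 3 of 4 (medians 1.63, 2.88 and 0.98). The jejunal tuft median rests in part on sham replicate 1, with 0 for Trpm5 and 1.84 for Avil. Sham replicate 2 had 3543 and 2474 of them, and both genes overlapped. Stem cell markers were above 0 for 8, 9 and 8 of 10, Paneth cell markers for 4, 5 and 5 of 5, and enteroendocrine markers for 6 of 7, 5 of 8 and 6 of 8. Higher without overlap, in the same order of segments, were 1, 0 and 1 goblet and 3, 0 and 2 tuft markers. For stem, Paneth and enteroendocrine markers it was 1, 1 and 5, 0, 1 and 0, and 1, 1 and 1. This held for 7.74%, 7.86% and 19.1% of all genes with a mean above 50. Lower without overlap were 1 stem and 1 tuft marker, both in the ileum. The summed stem cell list was 97148 to 187708 normalized counts in the duodenal VSG and 114984 to 118977 in the sham libraries, and the goblet list 105540.0 to 283498 and 93264 to 163305. Of the immune markers Cd79a was listed at 0 in every library and the summed list was 176 to 1629 normalized counts in the duodenal VSG and 27.6 to 86.8 in the sham libraries. The fibroblast genes Col1a1 and Col1a2 were lower in every duodenal VSG library, with 506 and 862 in sham replicate 2, and the summed list of stroma and endothelium was 103 to 655 in the VSG and 396 to 2167 in the sham libraries. The part of these cell types in the phase II differences was not tested.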

How the data were processed

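RNA-Seq of sorted Lgr5-GFP+ cells gave 16 libraries from 7 mice (5 VSG, 2 sham). Polyadenylated RNA was sequenced with 85-nt reads. Alignment by the authors used STAR 2.5.3a on mm10 and transcripts were quantified with Salmon 0.6.0, and they deposited gene values as counts normalized with DESeq2 within each segment, a signal that is not whole reads. Libraries the authors excluded for low mapping were not used here. Only 37.8% to 49.0% of a library's values came out as whole reads within 0.01, so no count test was run. The depth given is implied by the step of 1 read in each library and limits the low genes most.

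Values were taken as log2(normalized count + 1). Genes with a mean above 10 were tested with limma 3.58.1 (R 4.3.3), with trend, between the libraries of 1 segment, and p-values were adjusted over all genes tested (Benjamini-Hochberg). A gene was called at an adjusted p under 0.2, an unadjusted p under 0.05, a log2 fold change beyond 0.5 in size and a mean above 50. The difference between segments was fitted on jejunal minus duodenal values of 6 mice. The fit was tested on simulated data. Single genes were also tested with two-sided exact permutation tests.

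The members and lists were chosen with earlier results of these data known. In each segment, genes were named where they were called or had an unadjusted p under 0.05, where they were among the 5 largest differences without overlap in either direction, or where they were the most abundant of their class. Other genes are given to complete a class. Replicate numbers name mice across segments, but VSG and sham mice with 1 number are different mice. P-values measure the spread between these mice, with 2 of them in the sham group. Alternatives were other pseudocounts, filters and scalings, limma without trend, the replicate block and leaving out each library. Figures were drawn with matplotlib 3.10.9.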

Additional observations from a re-analysis of the deposited data

Results flagged for a closer look

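For 5 phase II genes, every ileal VSG library was above both ileal sham libraries while every duodenal VSG library, and for 4 of them every jejunal one, was below both sham libraries of its segment. Of all genes with a mean above 50 in the duodenum and the ileum, 1.43% had this pattern. Gstm4 and Gstm6 were above 50 in the ileum through the VSG group alone. Among genes above 50 in both groups of both segments, 3 of 26 phase II genes (Mgst1, Ugt1a1 and Ugt2b35) and 1.15% of all genes had it. The ileal libraries come partly from other mice than the duodenal ones, the segments were normalized separately, and the difference between the ileum and the other segments was not tested. Ugt1a1 had log2 fold changes (VSG minus sham) of -0.94 (duodenum), -1.13 (jejunum) and 1.14 (ileum). For Ugt2b35 they were -0.89 (duodenum), -1.11 (jejunum) and 1.13 (ileum). Those of Gstm4 were -0.70 (duodenum), -1.58 (jejunum) and 3.47 (ileum), but the ileal value rests on sham replicate 2, which was listed at 0. It was 0.23 without that library and 6.71 without sham replicate 1, and the libraries nearest to each other had 88.3 in sham and 88.4 in VSG. Gstm6 had -1.44 (duodenum), -1.63 (jejunum) and 8.13 (ileum), where its ileal value is set by the pseudocount because both ileal sham libraries were listed at 0. Mgst1, which overlapped in the jejunum, had -0.48 (duodenum) and 0.67 (ileum). Ugt1a1 and Ugt2b35 lie among the UGT genes and Gstm4, Gstm6 and Mgst1 among the GSTs. Dixon's test flagged no library in the VSG groups of the named duodenal and jejunal genes (27 groups of 4 checked). With 4 values it has little power and cannot clear a library. Its outcome also depends on the scale of the values. On the log2 scale of the fold changes, low libraries stand further apart, so no conclusion is drawn from it. Jejunal VSG replicate 1 stood apart for Gstm3 (283 against 2207, 2363 and 2616) and was listed at 0 for Ugt2a3 and Sult6b2.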

How the results depend on the processing

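In the duodenum 0 genes were called, and 1 was without the trend (Ugt2b38). Leaving out 1 library gave 0 to 1 called genes, 1 each without VSG replicate 1, sham replicate 1 or sham replicate 2. It gave 7 to 18 genes at an unadjusted p under 0.05 and a median log2 fold change from -0.999 to -0.73. In the jejunum 1 gene, Gsta1, was called with a pseudocount of 10 and 1 with quantile normalization. There 5 genes had an unadjusted p under 0.05 when libraries were scaled to the same total, and 5 without the trend. Leaving out 1 library there gave a median from -1.35 to -0.70. In the ileum 1 gene had an unadjusted p under 0.05 with a pseudocount of 10, 1 with no filter, and 2 were called without the trend (Gstm2 and Gstm6). Leaving out 1 ileal library, which leaves a group with 1 library, gave a median from -0.022 to 0.53. That median turned to -0.012 without VSG replicate 5 and to -0.022 without sham replicate 1. For the difference between segments, leaving out 1 mouse gave 0 to 4 genes at an unadjusted p under 0.05, 3 without sham replicate 1 and 4 without sham replicate 2. The shares of all genes called under these alternatives are not given, so the called counts say nothing particular to the phase II genes. The causes were not tested.

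VSG and sham libraries of 1 replicate number were from different mice, and their deviations from the group means correlated at under 0.1 (-0.049 and -0.026 in the duodenum, 0.054 and 0.0099 in the jejunum). With the replicate block, in which the numbers 1 and 2 alone bear on the difference, 0 genes were called in either segment, 12 duodenal and 3 jejunal genes had an unadjusted p under 0.05, and the medians were -1.12 and -1.31. The block is thus no pairing of mice in either segment. It was not fitted for the ileum because the groups there share fewer than 2 numbers. For all 37 values of named genes, the VSG libraries lay entirely on 1 side of the sham libraries. This alone fixes their direction when a library is left out or the pseudocount is changed. The 37 values kept their direction in each of the 14 duodenal, 14 jejunal and 11 ileal alternatives. Under some alternative 7 of them passed the adjusted p of 0.2.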
